A study of Mus musculus with 40 samples.

Results

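The genes described here are 10 mouse genes for fibronectin and matricellular glycoproteins, taken by symbol from the 51789 Ensembl genes of the count table. They are Fn1, Vcam1, Fbn1, Fbln2, Thbs1, Tnc, Postn, Thbs2, Tgfbi and Sparc, and each matched 1 identifier. Their mRNA was measured by QuantSeq, a sequencing method that reads the 3′ end of each transcript, in 40 libraries of cultured mouse melanoma cells, 2 for each of 20 groups.

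B16-F10, a widely used pigmented mouse melanoma line, was sequenced as a control clone (Ctrl) and as a Bmal1 knockout clone (Bmal1 KO). YUMM2.1 cells come from mouse tumours with BrafV600E, loss of 1 Cdkn2a copy and a stabilised β-catenin among their alleles, and YUMM1.7 cells from tumours whose alleles include BrafV600E and loss of Cdkn2a. aC3 is a single Bmal1-null clone of YUMM2.1. YUMM2.1, aC3 and YUMM1.7 cells each carried a lentiviral empty vector (EV), wild type Bmal1 (WT-Bmal1) or Bmal1 without its DNA-binding basic helix-loop-helix domain (dHLH-Bmal1). Transduced cells were sorted on GFP, so that each is a population and not a clone. YUMM2.1 cells of all 3 kinds were further given a control hairpin (shNC) or a hairpin against Myh9, the heavy chain of non-muscle myosin IIA, numbered shMyh9#2 or shMyh9#4. aC3 and both B16-F10 groups rest on 1 clone each, so clone and genotype cannot be told apart there. The sources used here do not say that any construct or hairpin line was made more than once. A construct or hairpin can therefore not be told apart from the population derived with it.

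Fibronectin (Fn1) is a secreted dimer that cells assemble into fibrils through integrins, and it is a classical mesenchymal gene of melanoma and carcinoma cells. Matricellular proteins such as tenascin C (Tnc), periostin (Postn), SPARC (Sparc) and the thrombospondins (Thbs1, Thbs2) sit in the matrix without being its main scaffold, and change how cells attach and respond to growth factors. Fibrillin 1 (Fbn1) builds microfibrils that hold latent TGF-β, fibulin 2 (Fbln2) bridges microfibrils and basement membranes, and Tgfbi is a matrix protein induced by TGF-β. VCAM1 (Vcam1) is not a matrix protein but a cell surface ligand of integrin α4β1, the receptor that also binds fibronectin. In the annotation of the mm10 build, all 10 are protein-coding. Fn1 spans chr1:71585520-71653200 on the minus strand, Vcam1 chr3:116109949-116129688 on the minus strand, and Tnc chr4:63959785-64047015 on the minus strand. Fn1, Tnc, Thbs1, Vcam1 and Fbn1 each overlap 1 annotated gene on the opposite strand. The strand of counting is not given in the sources used here, so reads of those pairs cannot be told apart.

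Library totals ran from 3643332 to 22970049 counts. Levels are given as CPM, the reads of a gene per 1000000 reads of the library total after scaling by the trimmed mean of M values (TMM). A 3′ tag count does not grow with transcript length, so these levels can be set side by side between genes. Differences are log2 fold changes with the standard error (SE) of edgeR's quasi-likelihood fit, and a gene was called where its p, adjusted over all genes of the fit by the Benjamini-Hochberg method, was under 0.05. With 2 libraries a group, p-values weigh a difference between groups against the spread between libraries of a group. That spread is pooled over all groups of a fit and drawn towards that of other genes. Myh9 mRNA fell with both hairpins in all 3 cell kinds, for example from 703 and 665 CPM with shNC to 229 and 248 CPM with shMyh9#2 in EV cells. Arntl, the gene of Bmal1, was counted at 15.2 and 10.7 CPM in B16-F10 Ctrl and at 13.3 and 11.5 CPM in Bmal1 KO. A 3′ tag lies outside a small coding lesion, so it does not check the knockout. With dHLH-Bmal1 Arntl was called higher than in EV in YUMM2.1 (means of 43.3 against 14.9 CPM), YUMM1.7 (17.6 against 8.54 CPM) and YUMM2.1 with shNC (43.5 against 29.1 CPM). With WT-Bmal1 it was called lower in aC3 (17.8 against 31.8 CPM). The other comparisons of a construct with EV gave no Arntl call. Whether such tags come from the construct or the cell's own gene was not tested.

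The labels of 2 YUMM2.1 libraries are in doubt, and this bears on every value of YUMM2.1 cells without hairpins. The library labelled EV replicate 2 and the library labelled WT-Bmal1 replicate 1 carry each other's label in the study's own normalised table. In the deposited counts, the SD of the log2 difference over 14323 genes was 0.653 between the libraries labelled EV 1 and EV 2, but 0.429 between those labelled EV 1 and WT-Bmal1 1. It was 0.545 between the libraries labelled WT-Bmal1 1 and 2, and 0.502 between those labelled EV 2 and WT-Bmal1 2. Values of the members are therefore given under the deposited labels. They are also given with these labels exchanged and without both libraries where this changed a call or a direction or clearly moved a value. Other genes are given under the deposited labels only. These 2 libraries carry no hairpin and enter no hairpin comparison.

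The lines differed widely in these genes. Together the members took 0.0629% to 0.102% of the unscaled library total in the B16-F10 libraries, 0.262% to 0.277% in YUMM1.7, and 0.295% to 0.476% in YUMM2.1 and aC3. All 10 were lower in B16-F10 Ctrl than in YUMM2.1 EV, where 54.3% of all genes tested were called, 25% higher and 29.2% lower. Their median log2 fold change was -4.67, against -0.01 over all genes. Of the 10, only 5 passed the filter on low counts within the B16-F10 libraries. The others entered this fit through lines where they were higher, so this count and median are a description only.

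**Figure D1:**
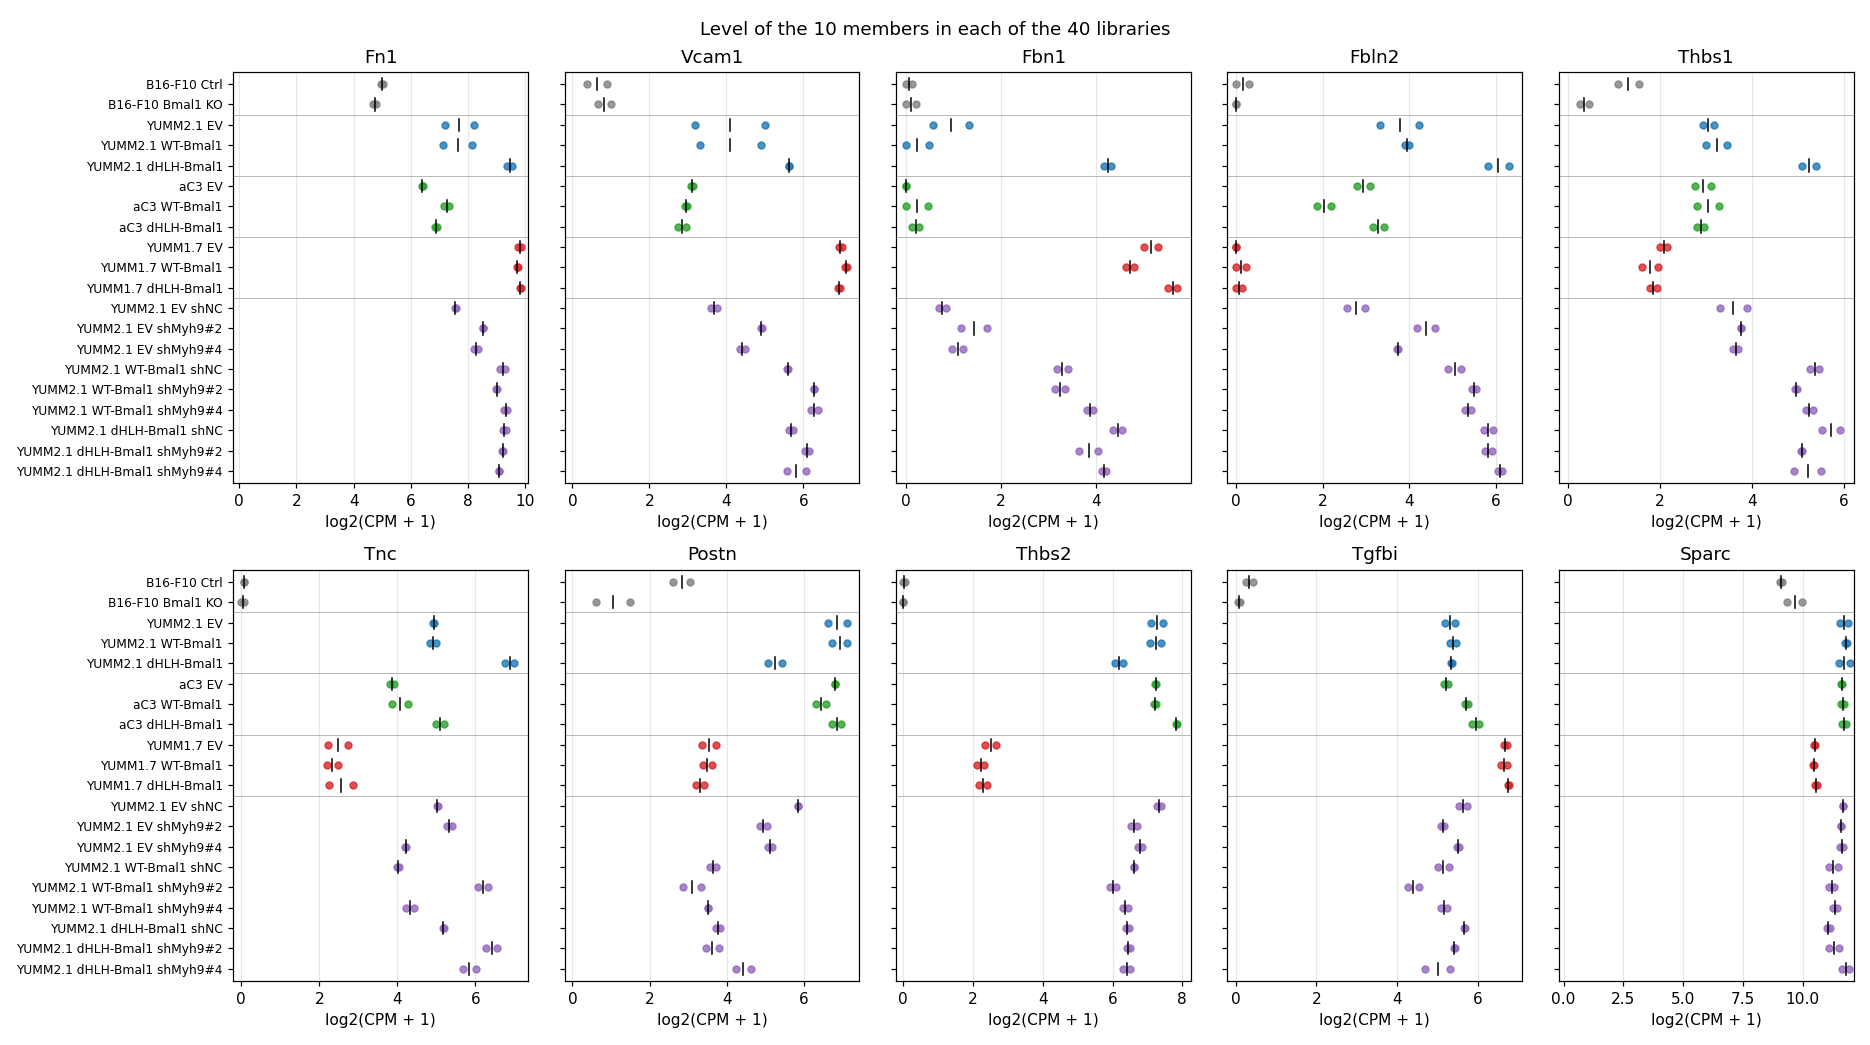
Level of each member in every library, as log2(CPM + 1) on the horizontal axis, with 1 row per group, 1 point per library and a black bar at the group mean; colours mark B16-F10 (grey), YUMM2.1 (blue), aC3 (green), YUMM1.7 (red) and the YUMM2.1 hairpin groups (purple). Fn1 and Vcam1 are highest in YUMM1.7, Fbln2 is at or near 0 there, and Sparc is the most abundant member in all 20 groups.

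Sparc was the most abundant member in every line. In B16-F10 Ctrl it stood at 539 and 571 CPM, in YUMM2.1 EV at 3028 and 3808 CPM, in aC3 EV at 3114 and 3247 CPM, and in YUMM1.7 EV at 1470 and 1431 CPM. For Fn1 the B16-F10 Ctrl libraries held 29.8 and 31.4 CPM, those of YUMM2.1 EV 144 and 292 CPM, those of aC3 EV 82.1 and 84.2 CPM, and those of YUMM1.7 EV 859 and 913 CPM. Both genes were lowest in B16-F10, but their order between YUMM2.1 and YUMM1.7 was opposite. The Fn1 difference of B16-F10 Ctrl from YUMM2.1 EV was -2.86 (SE 0.26, adjusted p = 1.1e-05), or -2.24 with the 2 labels exchanged and -2.27 without both libraries, and that of Sparc was -2.65 (SE 0.12, adjusted p = 5.9e-08).

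Several members were barely counted in B16-F10. Tnc had 1 count in each Ctrl library, Thbs2 had 1 and 0, Tgfbi 4 and 7, Fbn1 2 and 0, and Fbln2 5 and 0. In the B16-F10 Bmal1 KO libraries Thbs2 and Fbln2 had 0 counts. Fitted folds of such genes rest on few reads and are not given, and the lower call of Fbn1 against YUMM2.1 EV was lost with the 2 labels exchanged (adjusted p = 0.14). In these 4 libraries the members that passed the filter on low counts were Sparc, Fn1, Postn, Thbs1 and Vcam1.

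YUMM1.7 EV differed from YUMM2.1 EV in all 10 members, 4 higher and 6 lower, where 37.1% of all genes were called, 17.8% higher and 19.3% lower. Fbln2, among the lower, was at or near 0 in YUMM1.7 and entered this fit through the other lines. Vcam1 stood at 127 and 120 CPM against 8.05 and 30.8 CPM in YUMM2.1 EV, a log2 fold change of 2.68 (SE 0.45, adjusted p = 0.0011). Fbn1 stood at 38.0 and 30.8 CPM against 0.498 and 1.51 CPM, a log2 fold change of 5.15 (SE 0.42, adjusted p = 2.0e-05). Tgfbi was also higher, at 104 and 99.1 CPM against 42.0 and 35.4 CPM, a log2 fold change of 1.38 (SE 0.13). With the 2 labels exchanged Vcam1 was 3.84 and Fbn1 7.03 higher, and without both libraries 3.92 and 6.07. Leaving out 1 library gave 1.99 to 3.92 for Vcam1 and 4.49 to 6.07 for Fbn1, both highest without YUMM2.1 EV replicate 2.

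The lower members included both thrombospondins and the matricellular pair Tnc and Postn. Thbs2 stood at 5.35 and 4.12 CPM in YUMM1.7 EV against 175 and 136 CPM in YUMM2.1 EV, a log2 fold change of -5.04 (SE 0.19, adjusted p = 4.3e-08). Postn stood at 9.18 and 12.3 CPM against 138 and 97.4 CPM, and Tnc at 5.61 and 3.65 CPM against 29.4 and 29.9 CPM. The groups did not overlap for any of these genes. Fbln2 had 0 counts in both YUMM1.7 EV libraries. Under the deposited labels it was at least 48.8-fold lower than in YUMM2.1 EV, computed against 3 counts in each library. That bound takes in the EV library whose label is in doubt, and was not computed under the other label settings. The Thbs1 call was lost without YUMM1.7 EV replicate 1 or 2, with log2 fold changes of -1.31 to -1.04 over the libraries left out.

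aC3 EV and YUMM2.1 EV differed in 2 members, both lower in aC3, where 1.75% of all genes were called, 0.441% higher and 1.3% lower. Tnc stood at 14.1 and 13.1 CPM in aC3 EV against 29.4 and 29.9 CPM, a log2 fold change of -1.13 (SE 0.19, adjusted p = 0.021). The Fn1 log2 fold change was -1.39 (SE 0.25, adjusted p = 0.026) under the deposited labels, and -0.78 (SE 0.07, adjusted p = 2.3e-05) with the 2 labels exchanged. Both calls were lost without aC3 EV replicate 1 or 2. Fbn1 had 0 counts in both aC3 EV libraries.

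The lines also differed in marker genes, which were checked against the tissue named in the labels. The summed level of 8 melanocytic genes was 24433 to 26048 CPM in B16-F10 Ctrl, 498 to 516 CPM in YUMM2.1 EV, while YUMM1.7 EV held 14.2 to 14.8 CPM. Dct, Tyrp1 and Mlana, defining pigment cell genes, were at 0 in YUMM2.1 EV and YUMM1.7 EV, and nearly all of the YUMM2.1 sum was Sox10 at a mean of 492 CPM. The summed level of 6 fibroblast genes was 152 to 158 CPM in YUMM1.7 EV, mostly Pdgfra at a mean of 105 CPM, and YUMM2.1 EV held 2.16 to 6.68 CPM. Immune genes summed to 2.05 CPM or less in these EV groups, and Cd3e was at 0. The part of these genes in the member differences was not tested.

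In B16-F10, Bmal1 KO was compared with Ctrl, and 5 of the 10 members passed the filter on low counts. None was called by edgeR, where 0.44% of all genes were called (0.22% in either direction) and 1715 of 14556 had an unadjusted p under 0.05. Postn stood at 1.83 and 0.527 CPM in KO and at 7.29 and 5.09 CPM in Ctrl, without overlap. Its log2 fold change was -2.37 (SE 0.60, adjusted p = 0.24). Thbs1, at 0.367 and 0.192 CPM against 1.91 and 1.11 CPM, gave -2.40 (SE 0.67, adjusted p = 0.29). Sparc gave 0.58 (SE 0.25, adjusted p = 0.45), with KO libraries at 650 and 1015 CPM and Ctrl libraries at 539 and 571 CPM.

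In aC3, the constructs were added to cells without Bmal1, and 9 of the 10 members passed the filter. With WT-Bmal1, 4 members were called, 2 higher and 2 lower, where 11.2% of all genes were called, 4.92% higher and 6.28% lower. With dHLH-Bmal1, 4 were called, all higher, where 10.9% of all genes were called, 4.79% higher and 6.09% lower. The median log2 fold change of the members was 0.04 with WT-Bmal1 and 0.37 with dHLH-Bmal1, against 0.01 over all genes in both. The 2 comparisons share the EV libraries.

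Fn1 rose with both constructs. It stood at 82.1 and 84.2 CPM in EV, at 143 and 159 CPM with WT-Bmal1 and at 118 and 114 CPM with dHLH-Bmal1. The log2 fold change was 0.86 (SE 0.09, adjusted p = 4.8e-05) with WT-Bmal1 and 0.47 (SE 0.09, adjusted p = 0.0043) with dHLH-Bmal1. The second was lost without aC3 EV replicate 1 or 2, at 0.44 to 0.49, and in an edgeR fit of all 40 libraries (adjusted p = 0.34). Tgfbi rose with both as well, from 34.8 and 37.0 CPM to 52.5 and 50.5 CPM with WT-Bmal1 and 57.1 and 64.4 CPM with dHLH-Bmal1, log2 fold changes of 0.52 (SE 0.11) and 0.74 (SE 0.11). The first was lost without EV replicate 1 or WT-Bmal1 replicate 1, at 0.47 to 0.56, and in the fit of all 40 libraries (adjusted p = 0.052).

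Tnc and Thbs2 were called with dHLH-Bmal1, and not with WT-Bmal1. Tnc stood at 14.1 and 13.1 CPM in EV, 18.2 and 13.4 CPM with WT-Bmal1 and 31.1 and 35.5 CPM with dHLH-Bmal1. Thbs2 stood at 149 and 150 CPM in EV, 152 and 144 CPM with WT-Bmal1 and 230 and 223 CPM with dHLH-Bmal1. The difference between the constructs was itself called for both, with dHLH-Bmal1 minus WT-Bmal1 at 1.06 (SE 0.16, adjusted p = 0.0047) for Tnc and 0.60 (SE 0.08, adjusted p = 0.0021) for Thbs2. In that comparison 0.877% of all genes were called, 0.435% higher and 0.442% lower. Both calls between constructs were lost without aC3 WT-Bmal1 replicate 2, where the log2 fold changes over the libraries left out were 0.86 to 1.29 and 0.57 to 0.64.

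Fbln2 separated the constructs in aC3 as well. It stood at 7.51 and 5.93 CPM in EV, 3.59 and 2.67 CPM with WT-Bmal1 and 7.94 and 9.67 CPM with dHLH-Bmal1. The fall with WT-Bmal1 was called (-1.10, SE 0.28, adjusted p = 0.022), as was dHLH-Bmal1 against WT-Bmal1 (1.47, SE 0.28, adjusted p = 0.022), while dHLH-Bmal1 against EV was not (0.37, SE 0.25, adjusted p = 0.38). The difference between constructs was lost without either WT-Bmal1 library, at 1.28 to 1.7. The fall was lost without any 1 of the 4 libraries, at -1.33 to -0.91, and with DESeq2's Wald test. The Postn call with WT-Bmal1 (-0.36, SE 0.10, adjusted p = 0.037) remained in 1 of 4 such fits, at -0.50 to -0.25. Vcam1 stayed between 5.69 and 7.78 CPM in the 6 aC3 libraries, Thbs1 between 5.84 and 8.78 CPM and Sparc between 3114 and 3586 CPM, and none of the 3 was called.

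In YUMM2.1 cells with their own Bmal1, dHLH-Bmal1 gave the widest change. Under the deposited labels 7 of 10 members were called against EV, 5 higher and 2 lower, where 13.2% of all genes were called, 6.51% higher and 6.72% lower. WT-Bmal1 against EV gave no call in any gene by edgeR, with 98 of 14323 genes at an unadjusted p under 0.05. The median log2 fold change of the members was 1.52 with dHLH-Bmal1 and 0.01 with WT-Bmal1, against -0.01 and -0.0028 over all genes.

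The members that rose with dHLH-Bmal1 were Fn1, Tnc, Thbs1, Fbn1 and Fbln2. Fbn1 went from 0.498 and 1.51 CPM in EV to 18.9 and 16.9 CPM, a log2 fold change of 4.2 (SE 0.62, adjusted p = 0.0081). Thbs1 went from 6.64 and 7.98 CPM to 40.9 and 33.0 CPM (2.35, SE 0.25, adjusted p = 0.0029). Fbln2 went from 9.05 and 17.7 CPM to 55.4 and 77.4 CPM (2.33, SE 0.32, adjusted p = 0.0067). For each of the 3 the groups did not overlap. The size of the Fbn1 change depended on the labels, at 6.09 exchanged, 5.12 without both libraries and 3.56 to 5.12 with 1 library left out. Thbs1 was 2.44 and 2.46 under these 2 label settings and Fbln2 2.54 and 2.86.

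Tnc stood at 29.4 and 29.9 CPM in EV and at 107 and 128 CPM with dHLH-Bmal1 (1.99, SE 0.15, adjusted p = 0.0013). Fn1 stood at 144 and 292 CPM in EV and at 745 and 654 CPM with dHLH-Bmal1 (1.69, SE 0.40, adjusted p = 0.037). The EV libraries of Fn1 were further apart than those of Tnc. Without EV replicate 1, dHLH-Bmal1 replicate 1 or dHLH-Bmal1 replicate 2 the Fn1 call was lost, at 1.26 to 2.26 over the libraries left out. With the labels exchanged the Fn1 value was 2.31 (SE 0.11, adjusted p = 3.3e-06), and without both libraries it was 2.26 (adjusted p = 4.6e-05).

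Postn and Thbs2 fell. Postn went from 138 and 97.4 CPM in EV to 41.9 and 32.9 CPM (-1.65, SE 0.23, adjusted p = 0.0067), and Thbs2 from 175 and 136 CPM to 78.4 and 66.6 CPM (-1.09, SE 0.18, adjusted p = 0.013). The thrombospondins thus moved in opposite directions. Exchanged and without both libraries, Postn was -1.87 and -1.89, Thbs2 -1.24 and -1.28, and Tnc 2.04 and 1.98. The Thbs2 call was lost without EV replicate 1 or dHLH-Bmal1 replicate 2, at -1.28 to -0.90. Tgfbi, at 39.2 and 40.1 CPM, and Sparc, at 2944 and 4060 CPM, overlapped their EV libraries and were not called.

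**Figure D2:**
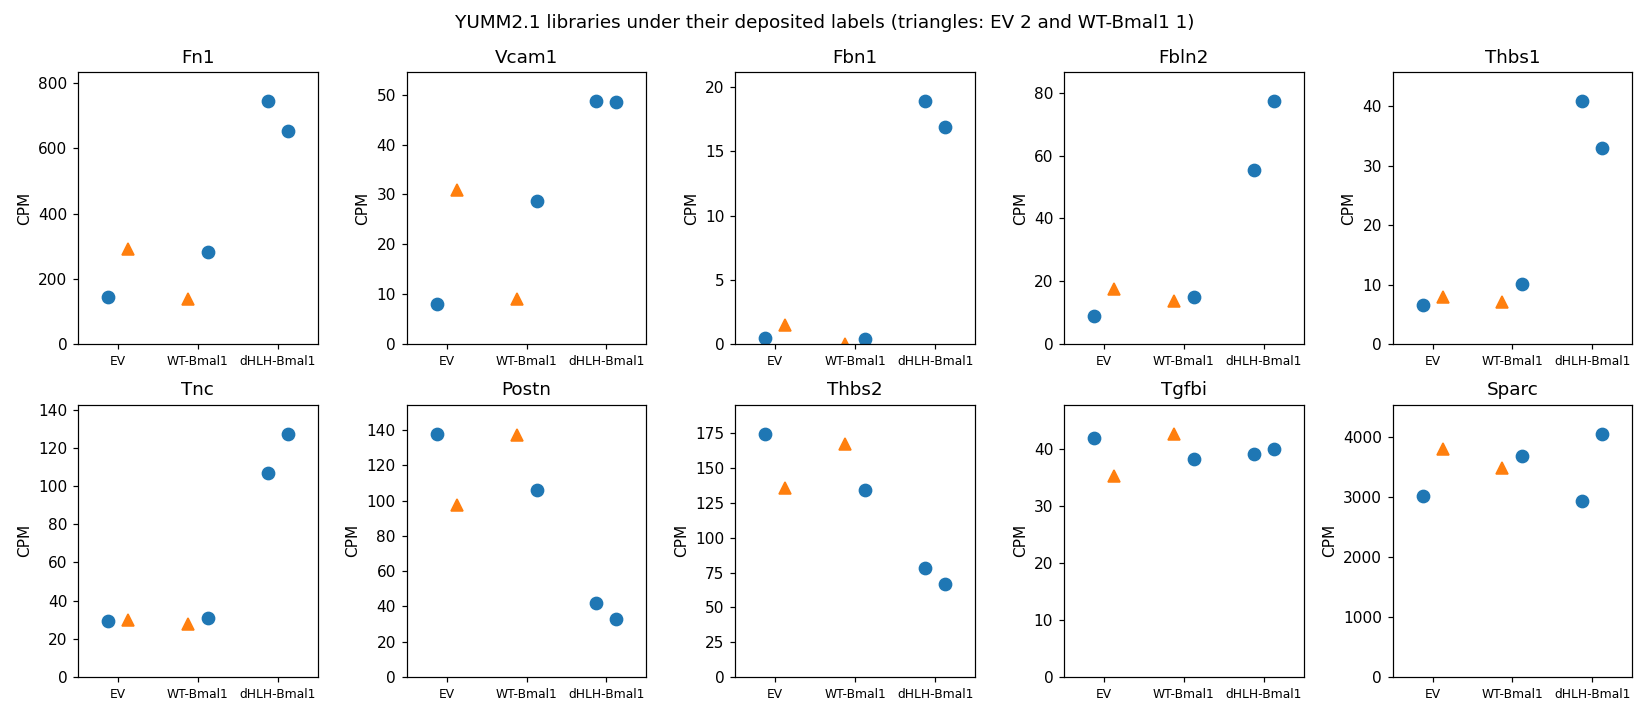
CPM of each member in the 6 YUMM2.1 libraries without hairpins, on linear axes from 0, by deposited label; triangles mark the libraries labelled EV replicate 2 and WT-Bmal1 replicate 1, circles the other 4. For Fn1 the triangle labelled EV (292 CPM) lies beside the circle labelled WT-Bmal1 (282 CPM), and the triangle labelled WT-Bmal1 (139 CPM) beside the circle labelled EV (144 CPM); Vcam1 shows the same arrangement.

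The call of Vcam1 turned on the labels in doubt. The libraries labelled EV 1 and WT-Bmal1 1 held 8.05 and 8.97 CPM, those labelled EV 2 and WT-Bmal1 2 held 30.8 and 28.6 CPM, and the dHLH-Bmal1 libraries held 48.7 and 48.6 CPM. Under the deposited labels neither construct gave a call against EV, at 1.35 (SE 0.66, adjusted p = 0.24) for dHLH-Bmal1. With the replicate number as a block it was 1.63 (SE 0.37, adjusted p = 0.010), with the labels exchanged 2.52 (SE 0.14, adjusted p = 8.8e-06), and without both libraries 2.58 (adjusted p = 2.5e-05).

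For WT-Bmal1 against EV the same exchange brought 2 members past the threshold. Fn1 was then 1.01 higher (SE 0.11, adjusted p = 0.0057) and Vcam1 1.80 higher (SE 0.14, adjusted p = 0.0020), where the deposited labels gave -0.05 (SE 0.40) and -0.04 (SE 0.67). Without both libraries, which leaves 1 library a group whose spread is taken from the dHLH-Bmal1 pair, Vcam1 was 1.81 (adjusted p = 0.030) and Fn1 0.95 (adjusted p = 0.56). The other 8 members stayed uncalled under either setting, among them Fbn1, which rests on few counts and went from -2.30 (SE 0.98) under the deposited labels to 1.84 (SE 0.95) exchanged and -0.33 (SE 0.86) without both. The 7 dHLH-Bmal1 calls against EV held under all 7 alternatives other than leaving out a single library.

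dHLH-Bmal1 against WT-Bmal1 in YUMM2.1 gave 7 calls for the same 7 members, where 13% of all genes were called, 6.44% higher and 6.6% lower. Tnc stood at 27.7 and 30.7 CPM with WT-Bmal1 and was higher with dHLH-Bmal1 by 2.01 (SE 0.15, adjusted p = 0.0012). Fbn1 had 0 and 4 counts in the WT-Bmal1 libraries. Fn1 was lost without WT-Bmal1 replicate 1 or either dHLH-Bmal1 library (1.32 to 2.33), Thbs2 without WT-Bmal1 replicate 1 or dHLH-Bmal1 replicate 2 (-1.21 to -0.88), and Postn (-1.88 to -1.49) and Fbln2 (1.95 to 2.43) without WT-Bmal1 replicate 1. With the labels exchanged, Vcam1 was also called, at 0.72 (SE 0.13, adjusted p = 0.0062). It was 1.39 (SE 0.66, adjusted p = 0.23) under the deposited labels, and 1.64 (SE 0.37, adjusted p = 0.0097) with the replicate number as a block.

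Promoters are shown for members that rose and members that fell with dHLH-Bmal1, since Bmal1 binds E-boxes and the construct lacks the domain for it. RefSeq promoters of the GRCm38.p6 build, 250 bases before to 50 after a transcript start, were on hand for 7 of the 10 members with 9 starts. Fbn1, at chr2:125506439-125506688 on the minus strand, and Fbln2, at chr6:91212514-91212763 on the plus strand, belong to the genes that rose. Postn, at chr3:54360857-54361106 on the plus strand, and Thbs2, at chr17:14694263-14694512 on the minus strand, belong to those that fell. Each line gives the 250 bases before the start, 5′ to 3′, and capitals would mark a motif match.
Fbn1: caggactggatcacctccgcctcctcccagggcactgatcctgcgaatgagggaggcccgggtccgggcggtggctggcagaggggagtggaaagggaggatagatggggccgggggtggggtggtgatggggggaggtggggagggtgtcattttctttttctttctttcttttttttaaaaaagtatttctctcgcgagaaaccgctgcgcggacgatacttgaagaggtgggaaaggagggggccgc
Fbln2: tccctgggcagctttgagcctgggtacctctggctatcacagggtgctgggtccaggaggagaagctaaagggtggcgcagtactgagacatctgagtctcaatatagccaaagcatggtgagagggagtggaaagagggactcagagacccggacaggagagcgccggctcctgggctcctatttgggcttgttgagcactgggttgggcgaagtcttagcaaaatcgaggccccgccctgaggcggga
Postn: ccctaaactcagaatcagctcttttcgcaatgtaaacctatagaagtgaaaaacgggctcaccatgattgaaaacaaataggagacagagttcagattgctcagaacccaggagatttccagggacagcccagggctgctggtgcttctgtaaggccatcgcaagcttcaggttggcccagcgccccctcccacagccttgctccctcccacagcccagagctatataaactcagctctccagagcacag
Thbs2: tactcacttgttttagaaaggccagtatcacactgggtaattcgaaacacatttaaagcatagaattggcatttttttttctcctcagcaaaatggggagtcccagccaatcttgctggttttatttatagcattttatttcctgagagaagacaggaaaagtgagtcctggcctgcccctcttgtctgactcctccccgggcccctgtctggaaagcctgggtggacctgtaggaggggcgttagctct
None of the 9 windows held the E-box CACGTG, the AP-1 site TGANTCA or a CArG box, searched on both strands. Over all 32851 promoters of the same length, 7.15% held the E-box, 7.81% the AP-1 site and 1.63% a CArG box. These letters were absent from these windows, which says nothing of sites elsewhere.

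In YUMM1.7, 9 members passed the filter and none was called with WT-Bmal1 or dHLH-Bmal1 by edgeR. Of all genes, 0.138% were called with WT-Bmal1 (0.0434% higher and 0.0941% lower) and 0.63% with dHLH-Bmal1 (0.21% higher and 0.42% lower), and 1423 and 1428 of 13816 had an unadjusted p under 0.05. Fn1 stood at 859 and 913 CPM in EV, 828 and 853 CPM with WT-Bmal1 and 910 and 893 CPM with dHLH-Bmal1. Its log2 fold change with dHLH-Bmal1 was 0.03 with an SE of 0.04. Fbn1 was the member nearest to a call, at 38.0 and 30.8 CPM in EV, 23.7 and 26.5 CPM with WT-Bmal1 and 44.5 and 50.8 CPM with dHLH-Bmal1. That gave -0.44 (SE 0.12, adjusted p = 0.20) and 0.48 (SE 0.11, adjusted p = 0.084). Vcam1 ranged from 117 to 138 CPM over the 6 libraries.

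The dHLH-Bmal1 effect was tested directly between cell backgrounds, in a fit of 18 libraries. Against YUMM2.1, the effect in aC3 differed for 6 members, 3 higher and 3 lower, where 15.5% of all genes were called, 8.92% higher and 6.61% lower. Thbs2 differed by 1.7 (SE 0.19, adjusted p = 2.4e-05), since it rose in aC3 and fell in YUMM2.1. Thbs1 differed by -2.42 (SE 0.35, adjusted p = 0.00022), Postn by 1.7 (SE 0.26, adjusted p = 0.00034) and Fbln2 by -1.94 (SE 0.43, adjusted p = 0.0069). Tgfbi differed by 0.73 (SE 0.16, adjusted p = 0.0048).

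Fn1 differed by -1.20 (SE 0.39, adjusted p = 0.048), a call that remained in 1 of 8 fits with a library left out, at -1.82 to -0.80, and it was -1.82 (adjusted p = 3.7e-09) with the 2 labels exchanged. Against YUMM2.1, the effect in YUMM1.7 differed for 5 members, 1 higher and 4 lower, where 12.4% of all genes were called, 5.86% higher and 6.56% lower. These were Thbs1 at -2.63 (SE 0.38), Tnc at -1.85 (SE 0.32), Fn1 at -1.65 (SE 0.38), Fbn1 at -3.74 (SE 0.52) and Postn at 1.40 (SE 0.30). All 5 calls held in the 8 fits with a library left out. With the 2 labels exchanged Fn1 differed by -2.27 and Fbn1 by -5.60, and without both libraries by -2.25 and -4.66. Vcam1 was then also called in both comparisons, at -2.81 for aC3 and -2.54 for YUMM1.7 with the labels exchanged. No member differed in the WT-Bmal1 effect by edgeR under the deposited labels, where 0.208% of all genes differed for aC3 and 0 for YUMM1.7, with 1581 and 475 genes at an unadjusted p under 0.05.

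The YUMM2.1 cells with hairpins were a separate set of libraries in which WT-Bmal1 and dHLH-Bmal1 could be compared again. The hairpins were put into EV, WT-Bmal1 and dHLH-Bmal1 cells already made, so this is not an independent repeat of the constructs. With shNC, WT-Bmal1 against EV gave 9 calls of 10 members, 5 higher and 4 lower, where 22.3% of all genes were called, 11.7% higher and 10.6% lower. dHLH-Bmal1 against EV gave 8 calls, 5 higher and 3 lower, where 26.4% of all genes were called, 13.9% higher and 12.5% lower. The members' median log2 fold changes were 0.65 and 0.95, against 0.02 over all genes in both. Both comparisons share the EV shNC libraries.

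Fn1, Vcam1, Fbn1, Fbln2 and Thbs1 rose with both constructs. Fn1 stood at 186 and 187 CPM in EV, 556 and 622 CPM with WT-Bmal1 and 598 and 633 CPM with dHLH-Bmal1, log2 fold changes of 1.66 (SE 0.09, adjusted p = 6.6e-10) and 1.73 (SE 0.09, adjusted p = 1.6e-10). Vcam1 stood at 11.1 and 12.4 CPM in EV, 46.9 and 47.9 CPM with WT-Bmal1 and 52.1 and 48.3 CPM with dHLH-Bmal1, log2 fold changes of 2.01 (SE 0.16) and 2.1 (SE 0.16). For neither gene was the difference between the constructs called, at 0.07 (SE 0.09) and 0.09 (SE 0.14).

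Fbn1 was graded between the constructs. It had 5 and 7 counts in the EV shNC libraries (0.617 and 0.785 CPM), 9.52 and 7.96 CPM with WT-Bmal1 and 22.2 and 19.5 CPM with dHLH-Bmal1. dHLH-Bmal1 minus WT-Bmal1 was 1.26 (SE 0.24, adjusted p = 0.0087), in a comparison where 1.91% of all genes were called, 0.828% higher and 1.08% lower. This call remained in 1 of 4 fits with a library left out, at 1.14 to 1.39. Fbln2 was graded likewise, at 6.91 and 4.93 CPM, 35.8 and 28.6 CPM, and 60.1 and 51.6 CPM, with 0.80 (SE 0.17, adjusted p = 0.015) between the constructs. It was lost without WT-Bmal1 shNC replicate 2 or dHLH-Bmal1 shNC replicate 1, at 0.65 to 0.97.

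Tnc separated the constructs most clearly. It stood at 31.3 and 31.7 CPM in EV, 15.4 and 14.9 CPM with WT-Bmal1 and 35.5 and 34.9 CPM with dHLH-Bmal1. It fell with WT-Bmal1 (-1.06, SE 0.16, adjusted p = 0.00011), was not called with dHLH-Bmal1 (0.17, SE 0.15, adjusted p = 0.46), and differed between them by 1.22 (SE 0.16, adjusted p = 0.00023). All 3 groups were free of overlap, and both calls held with any 1 library left out. In the YUMM2.1 libraries without hairpins Tnc had instead risen with dHLH-Bmal1, and its difference between the constructs had the same sign.

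Postn and Thbs2 fell with both constructs in these cells. Postn stood at 56.2 and 56.2 CPM in EV, 12.1 and 10.8 CPM with WT-Bmal1 and 12.2 and 13.3 CPM with dHLH-Bmal1, log2 fold changes of -2.29 (SE 0.20, adjusted p = 1.7e-07) and -2.14 (SE 0.19, adjusted p = 1.8e-07). Thbs2 went from 166 and 152 CPM to 96.9 and 96.4 CPM (-0.72, SE 0.11) and 82.1 and 87.6 CPM (-0.90, SE 0.11). Sparc fell with dHLH-Bmal1, from 3267 and 3270 CPM to 2053 and 2289 CPM (-0.58, SE 0.14, adjusted p = 0.0037), and stood at 2232 and 2823 CPM with WT-Bmal1 (-0.37, SE 0.13, adjusted p = 0.059). The Tgfbi call with WT-Bmal1 (-0.50, SE 0.17, adjusted p = 0.042) remained in 1 of 4 fits with a library left out, at -0.64 to -0.37.

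**Figure D3:**
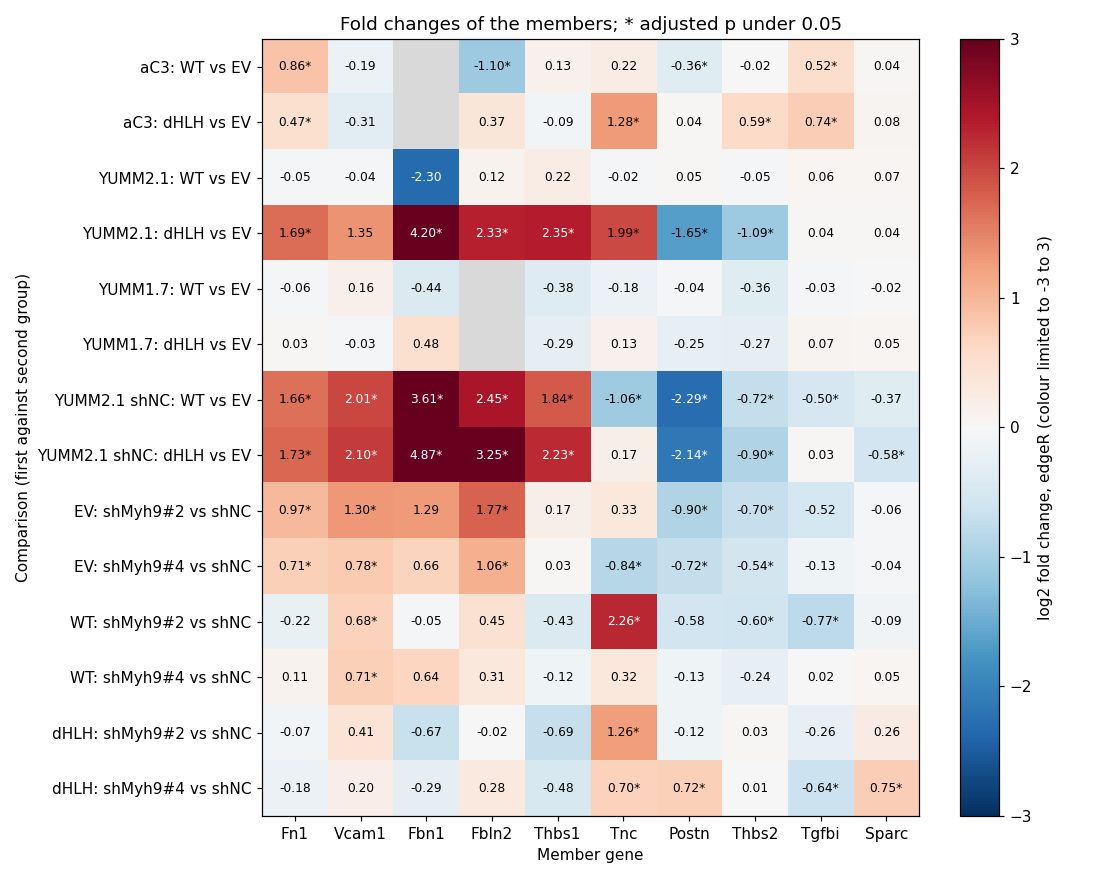
Log2 fold change of each member (columns) in 14 comparisons of 1 construct or hairpin (rows, first group against second), coloured from blue (lower) to red (higher) with the colour limited to -3 to 3; an asterisk marks an edgeR adjusted p under 0.05 and grey a gene that was not tested or had at most 3 counts in all in a group. The shNC rows show 5 members higher and Postn and Thbs2 lower with both constructs, and the YUMM1.7 rows hold no asterisk.

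The summed melanocytic genes moved with the same groups, at 346 to 349 CPM in EV shNC, 119 to 122 CPM in WT-Bmal1 shNC, 41.2 to 44.3 CPM in dHLH-Bmal1 shNC and 204 to 217 CPM in EV shMyh9#2, and from 498 to 516 CPM in YUMM2.1 EV to 81.4 to 94.0 CPM with dHLH-Bmal1. Most of each sum was Sox10, and the falls came from that gene. Mitf, of the same list, was higher in these groups. Its mean was 15.4 CPM in EV shNC, 19.9 CPM in WT-Bmal1 shNC, 18.1 CPM in dHLH-Bmal1 shNC and 23.8 CPM in EV shMyh9#2. Without hairpins its mean was 14.34 CPM in YUMM2.1 EV and 17.99 CPM with dHLH-Bmal1. Fibroblast genes summed to 6.84 to 8.26 CPM in EV shNC and 12.6 to 15.4 CPM in dHLH-Bmal1 shNC. Their members went opposite ways, with Pdgfrb at means of 1.96 and 11.1 CPM and Pdgfra at 5.41 and 2.64 CPM. Lum and Dcn were at or near 0 in both groups. The 4 endothelial genes summed to 7.96 to 10.1 CPM in EV shNC, 20.9 to 21.5 CPM in WT-Bmal1 shNC, 14.5 to 16.5 CPM in dHLH-Bmal1 shNC and 16.7 to 18.4 CPM in EV shMyh9#2. Cdh5 moved most among them, from a mean of 2.85 CPM in EV shNC to 12.3, 8.0 and 10.1 CPM in those groups, while Kdr and Tie1 were at or near 0 in all of them. Fewer cells of a kind and less RNA per cell cannot be told apart in such bulk libraries, and the part of these marker genes in the member differences was not tested.

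Knockdown of Myh9 was then compared with shNC within each cell kind. In EV cells shMyh9#2 gave 5 calls, 3 higher and 2 lower, where 6.65% of all genes were called, 4.2% higher and 2.46% lower. shMyh9#4 gave 6 calls, 3 higher and 3 lower, where 1.71% of all genes were called, 1.45% higher and 0.256% lower. Myh9 itself was lower by 1.51 on the log2 scale with shMyh9#2 and by 0.52 with shMyh9#4. The 2 comparisons share the EV shNC libraries.

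Fn1, Vcam1 and Fbln2 were higher with either hairpin. Fn1 went from 186 and 187 CPM to 362 and 368 CPM with shMyh9#2 (0.97, SE 0.09, adjusted p = 2.6e-06) and 292 and 320 CPM with shMyh9#4 (0.71, SE 0.09, adjusted p = 0.00015). Vcam1 went from 11.1 and 12.4 CPM to 28.6 and 29.5 CPM (1.30, SE 0.16) and 19.3 and 21.3 CPM (0.78, SE 0.16). Fbln2 went from 6.91 and 4.93 CPM to 17 and 23 CPM (1.77, SE 0.20) and 12.4 and 12.2 CPM (1.06, SE 0.21). For each of the 3 the shMyh9#2 libraries lay above the shMyh9#4 libraries, a difference that was not tested.

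Postn and Thbs2 were lower with either hairpin. Postn went from 56.2 and 56.2 CPM to 32.0 and 28.1 CPM (-0.90, SE 0.18, adjusted p = 0.0052) and 35.4 and 32.7 CPM (-0.72, SE 0.18, adjusted p = 0.047). Thbs2 went from 166 and 152 CPM to 91.7 and 104 CPM (-0.70, SE 0.11, adjusted p = 0.00062) and 106 and 113 CPM (-0.54, SE 0.11, adjusted p = 0.011). Tnc was lower with shMyh9#4, at 17.7 and 17.4 CPM against 31.3 and 31.7 CPM (-0.84, SE 0.16, adjusted p = 0.0055), and stood at 37.7 and 41.1 CPM with shMyh9#2 (0.33, SE 0.15, adjusted p = 0.22).

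The shMyh9#2 calls were firmer than those of shMyh9#4 in EV cells. With shMyh9#2 the calls of Fn1, Thbs2, Vcam1 and Fbln2 held in all 4 fits with a library left out, and Postn was lost without EV shMyh9#2 replicate 2, at -1.0 to -0.80. With shMyh9#4 the Fn1 call held in all 4, those of Postn (-0.77 to -0.66) and Thbs2 (-0.59 to -0.46) held in none, those of Tnc (-0.84 to -0.83) and Vcam1 (0.71 to 0.88) held only without EV shMyh9#4 replicate 1, and Fbln2 (0.84 to 1.32) was lost without EV shNC replicate 2 or EV shMyh9#4 replicate 2. In a fit of all 40 libraries the shMyh9#4 calls of Fn1 (adjusted p = 0.14), Postn (0.19), Thbs2 (0.057), Vcam1 (0.53) and Fbln2 (0.14) were lost, and so was that of Vcam1 with shMyh9#2 (0.050). Thbs1, Tgfbi, Sparc and Fbn1 were not called with either hairpin. Fbn1 had 17 and 10 counts with shMyh9#2, too few for a firm value.

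**Figure D4:**
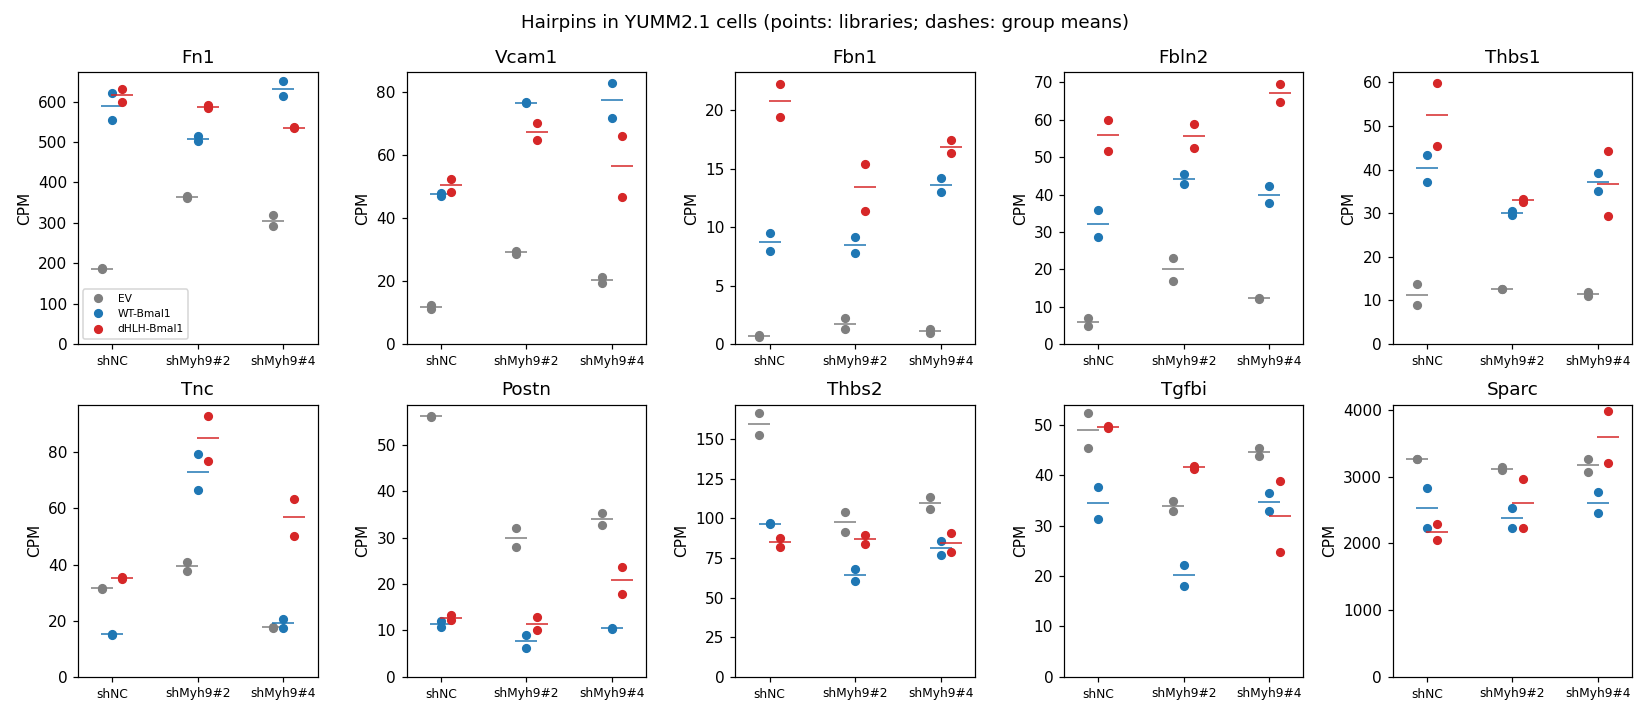
CPM of each member in the 18 YUMM2.1 hairpin libraries, on linear axes from 0, by hairpin (horizontal) and construct (grey EV, blue WT-Bmal1, red dHLH-Bmal1); points are libraries and dashes group means. Fn1 rises from shNC to either Myh9 hairpin in the EV cells, while the WT-Bmal1 and dHLH-Bmal1 points lie between 502 and 651 CPM throughout; Tnc is highest with shMyh9#2 in the WT-Bmal1 and dHLH-Bmal1 cells.

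In WT-Bmal1 cells shMyh9#2 gave 4 calls, 2 higher and 2 lower, where 4.76% of all genes were called, 2.35% higher and 2.41% lower. Tnc went from 15.4 and 14.9 CPM with shNC to 66.5 and 79.4 CPM with shMyh9#2 (2.26, SE 0.16, adjusted p = 7.8e-08). Vcam1 went from 46.9 and 47.9 CPM to 76.4 and 76.6 CPM (0.68, SE 0.14, adjusted p = 0.0073). The lower members were Thbs2 (-0.60, SE 0.11) and Tgfbi (-0.77, SE 0.17), the latter from 37.8 and 31.3 CPM to 22.3 and 18.1 CPM. Of these the Tnc call held with any 1 library left out and the Vcam1 call in none, at 0.67 to 0.70. Thbs2 was lost without WT-Bmal1 shMyh9#2 replicate 2, at -0.68 to -0.50, and Tgfbi without that library or WT-Bmal1 shNC replicate 1, at -0.93 to -0.63.

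With shMyh9#4 in WT-Bmal1 cells the single call was Vcam1, at 71.7 and 82.7 CPM (0.71, SE 0.14, adjusted p = 0.043), where 0.236% of all genes were called, 0.0876% higher and 0.148% lower. It was lost with any 1 library left out, at 0.60 to 0.78, and with the replicate block (adjusted p = 0.053). Tnc stood at 20.5 and 17.6 CPM there.

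In dHLH-Bmal1 cells shMyh9#2 gave 1 call, where 0.559% of all genes were called, 0.296% higher and 0.263% lower. Tnc went from 35.5 and 34.9 CPM to 93.1 and 77.1 CPM (1.26, SE 0.15, adjusted p = 0.00038), which held with any 1 library left out. With shNC, Myh9 stood at a mean of 684 CPM in EV cells and was called higher with WT-Bmal1 (0.51) and dHLH-Bmal1 (0.39). In dHLH-Bmal1 cells it went from 892 to 657 CPM with shMyh9#4 (-0.42), the smallest fall of any Myh9 hairpin against shNC. With shMyh9#4, 4 members were called, 3 higher and 1 lower, where 15.1% of all genes were called, 6.28% higher and 8.86% lower. That was the largest share for any Myh9 hairpin against shNC. Tnc stood at 63.4 and 50.2 CPM (0.70, SE 0.15, adjusted p = 0.0056), Postn at 23.7 and 17.9 CPM (0.72, SE 0.20, adjusted p = 0.025) and Sparc at 3208 and 3983 CPM (0.75, SE 0.14, adjusted p = 0.0021).

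The lower member was Tgfbi, at 38.9 and 24.8 CPM against 49.8 and 49.5 CPM (-0.64, SE 0.18, adjusted p = 0.022). The shMyh9#4 libraries of these cells held 3643332 and 6001340 counts. Sox10 was higher in them too, at a mean of 45.2 against 24.4 CPM, and the summed melanocytic genes stood at 68.8 to 73.6 CPM against 41.2 to 44.3 CPM, which was not tested for its part in these differences. Postn remained in none of 4 fits with a library left out, at 0.51 to 0.92, and not in the fit of all 40 libraries (adjusted p = 0.092), and Tgfbi in 1, at -0.99 to -0.34. Tnc was lost without dHLH-Bmal1 shNC replicate 1 or dHLH-Bmal1 shMyh9#4 replicate 1, at 0.52 to 0.86, and Sparc without dHLH-Bmal1 shMyh9#4 replicate 2, at 0.58 to 0.88.

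Whether shMyh9#2 acted differently with a construct present was tested as an interaction. Against its effect in EV cells, the effect in WT-Bmal1 cells differed for 3 members, where 5.18% of all genes differed (1.75% higher and 3.43% lower), and that in dHLH-Bmal1 cells for 6, where 3.29% differed (1.1% higher and 2.2% lower). Fn1 differed by -1.19 (SE 0.12, adjusted p = 9.9e-06) in WT-Bmal1 cells and by -1.04 (SE 0.12, adjusted p = 9.4e-05) in dHLH-Bmal1 cells. Fbln2 differed by -1.31 (SE 0.26, adjusted p = 0.0075) and -1.78 (SE 0.26, adjusted p = 0.00068), the first of which was lost without EV shNC replicate 2, at -1.57 to -1.05. In a fit of all 40 libraries that call (adjusted p = 0.075) and the Fn1 call in dHLH-Bmal1 cells (adjusted p = 0.066) were lost.

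For these genes the level with shNC was already higher with a construct than in EV cells with shMyh9#2. Tnc differed in the other direction, by 1.94 (SE 0.21, adjusted p = 2.1e-05) in WT-Bmal1 cells and 0.94 (SE 0.21, adjusted p = 0.018) in dHLH-Bmal1 cells. The Tnc difference in WT-Bmal1 cells held in all 8 fits with a library left out, and that in dHLH-Bmal1 cells in 3, at 0.80 to 1.09. Thbs2 (0.73, SE 0.16), Vcam1 (-0.89, SE 0.21) and Fbn1 (-1.96, SE 0.49) differed in dHLH-Bmal1 cells, and held in 5, 1 and 2 of 8 such fits, and Vcam1 and Fbn1 were lost in the fit of all libraries. Both interactions share the EV libraries.

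Across the 20 group means, the level of Vcam1 followed that of Fn1 most closely of the members, with a Pearson r of 0.98 on log2(CPM + 1), given as a description since groups share lines and libraries. Thbs2 followed Sparc with an r of 0.954 and Fbln2 followed Thbs1 with 0.943. Postn and Fn1 had an r of -0.0771. Among 9916 other protein-coding genes, the nearest to Fn1 were Aqp1 (0.989), a water channel, and Osr1 (0.985), a transcription factor, and the nearest to Vcam1 were Osr1 (0.981) and Sema3a (0.971), a secreted guidance factor.

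Genes near to the other members by the same measure were Wnt7b (0.934) and Tubb2b (0.931) for Tnc, Tnfaip8 (0.948) for Postn, Map6 (0.969) and Pdgfa (0.966) for Sparc, and Aqp5 (0.966) and Fam124a (0.959) for Thbs1. For Thbs2 they were Ccdc184 (0.986) and Stard10 (0.98), for Tgfbi Tfap2b (0.98) and Cavin3 (0.978), for Fbn1 Fam189b (0.979) and Ly6e (0.95), and for Fbln2 Gfra2 (0.968) and Ppl (0.966). Much of each r reflects the distance between lines, and no function is read from it.

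Other matrix glycoproteins and the receptors of the members were followed as 2 further lists of 48 and 19 genes. Their values in YUMM2.1 cells without hairpins are under the deposited labels, and were not examined with the labels exchanged or without both libraries. Of the glycoproteins, 27 were tested in YUMM2.1, and 7 rose and 5 fell with dHLH-Bmal1 against EV, with a median log2 fold change of 0.08 against -0.01 over all genes, of which 6.51% rose and 6.72% fell. The largest rises were in Ccn4 (51.1 against 1.48 CPM, 5.18, SE 0.67, adjusted p = 0.0053), a matricellular Wnt target, and Smoc2 (14.7 against 1.40 CPM, 3.44, SE 0.59), of the SPARC family. The largest falls were in Fbn2 (1.27 against 16.6 CPM, -3.70, SE 0.34), the second fibrillin, and Nid2 (1.55 against 8.83 CPM, -2.49, SE 0.46), a basement membrane protein. Fbn1 and Fbn2 thus moved in opposite directions.

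With shNC, 9 of 26 tested glycoproteins rose and 1 fell with WT-Bmal1, and 10 rose and 2 fell with dHLH-Bmal1, with medians of 0.60 and 0.73 against 0.02 over all genes. Of all genes 11.7% rose and 10.6% fell with WT-Bmal1, and 13.9% rose and 12.5% fell with dHLH-Bmal1. Ccn4 stood at means of 6.08 CPM in EV, 40.6 CPM with WT-Bmal1 and 88.3 CPM with dHLH-Bmal1. With shMyh9#2 in EV cells 4 rose and 0 fell, where 4.2% of all genes rose and 2.46% fell, and Ccn4 was again among them (15.9 CPM; 1.39, SE 0.23, adjusted p = 0.0010). In aC3 4 of 20 rose and 0 fell with WT-Bmal1, and 4 rose and 1 fell with dHLH-Bmal1, where 11.2% and 10.9% of all genes were called. In YUMM1.7 dHLH-Bmal1 raised Fbn2 (78.6 against 60.7 CPM) and lowered Spp1 (298 against 377 CPM), where 0.63% of all genes were called, and WT-Bmal1 gave 0 calls of 26 by edgeR, where 0.138% were.

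Of 19 receptors, 15 were tested in YUMM2.1, and 5 rose and 4 fell with dHLH-Bmal1 against EV, with a median of 0.26 against -0.01 over all genes, of which 13.2% were called. Ddr2, a collagen receptor, rose from a mean of 82.5 to 277 CPM (1.76, SE 0.33, adjusted p = 0.017), and Lrp1, an endocytic receptor of thrombospondins, from 140 to 365 CPM (1.39, SE 0.20). The integrin subunits Itgb3 (81.7 to 7.06 CPM, -3.54, SE 0.21, adjusted p = 0.00062) and Itga8 (97.7 to 10.2 CPM, -3.26, SE 0.37) fell, both part of integrins that bind fibronectin. The EV libraries lay far apart for Ddr2 (SD 37.4 CPM) and Itga8 (SD 46.9 CPM), but not for Itgb3 (SD 1.18 CPM). With shNC, 5 rose and 5 fell with either construct of 16 tested, where 22.3% of all genes were called with WT-Bmal1 and 26.4% with dHLH-Bmal1, and Ddr2, Itga8 and Itgb3 had the same signs. In YUMM1.7 0 receptors were called with either construct by edgeR.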

How the data were processed

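RNA of 40 libraries (QuantSeq FWD, single reads of 75 bp) was processed by the authors, who aligned reads to mm10 with bowtie2, estimated gene counts with RSEM and deposited whole-number counts. RSEM is version 1.2.3 in the submitters' processing notes, while the paper's methods give another version. The Ensembl release and counting strand are not given in the sources used here. Every column of counts was used.

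Groups came from the sample labels, where dHLH-Bmal1 is abbreviated in 2 ways. Symbols and positions came from GENCODE M21 (99.63% of identifiers matched), sequences from RefSeq. In R 4.3.3, edgeR 4.0.16 (TMM, filterByExpr, quasi-likelihood F test, Benjamini-Hochberg over all genes of a fit) was fitted per experiment and tested on simulated data, in 1 comparison for each fit, where the share of false calls was above the threshold of 0.05 in the fits of 4 to 8 libraries and below it in those of 18. The members, lists and comparisons were chosen with earlier results of these data known. All 10 members were named in every comparison, and from each further list at most 2 called genes in each direction with the largest changes. Some items are not reported here. Nearest genes were ranked by Pearson r of log2(CPM + 1) over group means among genes with at least 10 CPM in a group. A gene with 0 counts in a group was bounded with 3 counts in each library, which covers counting error only.

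Alternatives were DESeq2 1.42.0 size factors, its Wald test, no filter, 1 fit of all 40 libraries, a replicate block, exchanged labels, and leaving out libraries. Under the deposited labels, same-numbered YUMM2.1 libraries deviated together (r from 0.181 to 0.393 over 3 pairs, mean 0.318). With the 2 doubtful labels exchanged the mean r was 8.4e-05 and the lowest -0.151. Pairing there cannot be told apart from the label problem. The main fits have no block, and the replicate block is an alternative only. No other fit had every pair above 0.1. At the median total of 10021164.5 counts, 1 CPM is about 10 reads.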

Additional observations from a re-analysis of the deposited data

Results flagged for a closer look

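Each value here is a difference between effects of the same contrast in different cells, called by the interaction test of edgeR (adjusted p under 0.05).

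The shMyh9#2 effect in WT-Bmal1 cells minus that in EV cells was -1.19 for Fn1, 1.94 for Tnc and -1.31 for Fbln2 on the log2 scale. In dHLH-Bmal1 cells minus EV cells it was -1.04 for Fn1, 0.94 for Tnc, 0.73 for Thbs2, -0.89 for Vcam1, -1.96 for Fbn1 and -1.78 for Fbln2. A negative value says that the hairpin effect was lower on the log2 scale with the construct than in EV cells, not that the gene rose in both.

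The dHLH-Bmal1 effect in aC3 minus that in YUMM2.1 was -1.20 for Fn1, 1.7 for Postn, -2.42 for Thbs1, 1.7 for Thbs2, 0.73 for Tgfbi and -1.94 for Fbln2. In YUMM1.7 minus YUMM2.1 it was -1.65 for Fn1, -1.85 for Tnc, 1.40 for Postn, -2.63 for Thbs1 and -3.74 for Fbn1. The YUMM2.1 side of both uses the EV library whose label is in doubt.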

How the results depend on the processing

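Counts of members called, of 10, changed as follows, and the cause was not tested. The share of all genes called under each setting is not given beside the counts of this section. A changed count can therefore reflect the whole fit, and is not read as a result about the members. For B16-F10 Bmal1 KO against Ctrl the count of 0 became 1 with DESeq2's Wald test, 1 without the filter, 1 with the replicate block and 3 in a fit of all 40 libraries. In aC3, WT-Bmal1 against EV went from 4 to 2 with the Wald test and 1 in the fit of all libraries, and dHLH-Bmal1 against WT-Bmal1 from 3 to 5 without the filter, 5 with the block and 1 in the fit of all libraries. Without the filter the count became 1 for both YUMM1.7 comparisons (from 0), 2 for shMyh9#2 in dHLH-Bmal1 cells (from 1), 5 for aC3 EV against YUMM2.1 EV (from 2) and 2 for the WT-Bmal1 effect in aC3 minus YUMM2.1 (from 0). In the fit of all 40 libraries it became 1 for shNC dHLH-Bmal1 against WT-Bmal1 (from 3), 1 for shMyh9#4 in EV cells (from 6), 3 for the shMyh9#2 effect in dHLH-Bmal1 minus EV cells (from 6) and 0 for shMyh9#4 in WT-Bmal1 cells (from 1), where the block also gave 0.

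With the YUMM2.1 labels exchanged, and without both libraries, YUMM2.1 WT-Bmal1 against EV gave 2 and 1 members (from 0), the WT-Bmal1 effect in aC3 minus YUMM2.1 gave 3 and 1, and that in YUMM1.7 minus YUMM2.1 gave 2 and 2. Fn1 then turned to 1.01 (exchanged) and Vcam1 to 1.80 and 1.81 in YUMM2.1 WT-Bmal1 against EV, and the Vcam1 difference of the WT-Bmal1 effect in YUMM1.7 minus YUMM2.1 to -1.64 and -1.66. Without WT-Bmal1 replicate 2, Vcam1 was -1.10 and that difference 1.24.

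Leaving out 1 library in turn, the counts ranged from 0 to 3 for B16-F10, 1 to 2, 3 to 4 and 0 to 4 for aC3 WT-Bmal1, dHLH-Bmal1 and dHLH-Bmal1 against WT-Bmal1, 0 to 0, 5 to 8 and 3 to 7 for the same in YUMM2.1, and 0 to 0 for both in YUMM1.7. With shNC they ranged from 8 to 9, 8 to 8 and 1 to 3. For shMyh9#2 and shMyh9#4 they were 4 to 5 and 1 to 4 in EV cells, 1 to 3 and 0 to 0 in WT-Bmal1 cells, and 1 to 1 and 1 to 2 in dHLH-Bmal1 cells. The differences between effects gave 2 to 3 and 2 to 6 for shMyh9#2, 0 to 0 and 5 to 7 for aC3, and 0 to 0 and 5 to 7 for YUMM1.7. The lines gave 10 to 10 for B16-F10, 9 to 10 for YUMM1.7 and 0 to 4 for aC3. A group left with 1 library was assumed to vary like the others of its fit.

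Pairing by replicate number was met in YUMM2.1 alone, and there only under the deposited labels. The replicate block moved all genes called there from 1894 to 3877 (dHLH-Bmal1 against EV) and from 1868 to 3727 (against WT-Bmal1), and changed no member call there other than Vcam1. Elsewhere it changed the calls of Postn in B16-F10, Fn1 and Postn in aC3 dHLH-Bmal1 against WT-Bmal1, Vcam1 with shMyh9#4 in WT-Bmal1 cells and Thbs2 in the dHLH-Bmal1 effect of YUMM1.7 minus YUMM2.1. DESeq2 size factors changed no member call. Genes with few counts limit Fbn1 in EV cells and 5 members in B16-F10.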
